A study of Homo sapiens with 3 samples.

Results

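The data described here are the 433 p53 peaks listed for the library titled VCaP ERG shRNA#2, set against the 17986 peaks of the shRNA Luciferase library, the control. All 3 lists of the series together held 35740 peaks. The ERG shRNA#2 peaks were split by position on the human build hg19. Of them 204 lay inside chrX:66000001-67000000 (the X window), 35 lay inside chr8:87000001-88000000 (the chromosome 8 window), and 194 lay elsewhere. The same borders put 24, 32 and 17930 luciferase peaks into these classes. The windows were chosen with the positions of these peaks known, so the class sizes describe the list and are not a result.

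VCaP is a line of human prostate cancer cells long kept in culture, and its own p53 gene has the mutation R248W. Both libraries come from these cells, one after an ERG hairpin and the other after a hairpin against luciferase, which the cells do not have. Chromatin was immunoprecipitated and sequenced (ChIP-seq). The luciferase label names the p53 antibody DO-1, and the ERG shRNA#2 label names none, while the design text gives DO1 for the series. At least 3 immunoprecipitations were pooled into each library per the labels, and sheared to about 150 bp, so each side is 1 library, there is no replicate check, and no test was possible. The tags in the library names, which read like dates, differ between the sides, so any batch between them cannot be told apart from the hairpin. ERG expression was not analysed here.

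Wild-type p53 is a transcription factor that binds its own response elements and turns on cell cycle arrest and cell death genes. Mutations in its DNA-binding domain, such as the one in VCaP, weaken that binding, and mutant p53 can reach chromatin through other DNA-bound factors. ERG is an ETS family transcription factor that VCaP cells make from a fusion with the TMPRSS2 gene, and the series title poses ETS factors as recruiters of mutant p53. The chromosome 8 window covers the part of the long arm where WWP1, a ubiquitin ligase gene, and CNGB3, a cone photoreceptor channel gene, lie. No gene annotation of this build was used here, so no single peak is assigned to a gene.

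Each peak has values from the authors' peak caller. Pileup is the number of extended tags that cover the summit, fold enrichment is that pileup over the local background with 1 added to each, and width is the peak's length. The ERG shRNA#2 library held 52175068 tags and the luciferase library 9258451, a ratio of 5.64, and the input had 14360465 tags in both headers. The larger data set was scaled to the smaller, so 1 tag adds 0.275 to an ERG shRNA#2 pileup and 1 to a luciferase pileup. For that reason pileups are also given as multiples of the library mean, the coverage that evenly spread tags would give, which was 0.819 on the scaled ERG shRNA#2 axis and 0.508 for luciferase. The 1 added in the fold weighs differently on these axes, so folds are not on the same scale in both lists either. The local background was recovered from pileup and fold, and is given as a multiple of the genome-wide background.

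In the X window the ERG shRNA#2 peaks had high pileups, large widths and low folds, on a high background. Their pileup ran from 12.7 to 28.1 with a median of 19.5 (quartiles 17.3 to 21.5), which is 71 tags before scaling. Luciferase peaks of the window had pileups of 8 to 27 with a median of 16. As multiples of the library mean, these medians were 23.9 for ERG shRNA#2 and 31.5 for luciferase. The background under them was high in both lists, with a median of 7.76 times the genome-wide value at the ERG shRNA#2 peaks and 8.51 times at the luciferase peaks. All 204 ERG shRNA#2 peaks stood on a background of at least 4.51 times. Fold enrichment had a median of 2.79 (range 1.94 to 4.01) in ERG shRNA#2 and 3.14 (2.50 to 5.15) in luciferase. The least ERG shRNA#2 pileup that passed the caller's p cutoff rises with the background. At each class's median background it was 15 in the X window, 5 in the chromosome 8 window and 8 elsewhere. Differences in pileup and fold between the classes are thus partly built in.

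Widths were also spread unevenly over the classes. In the X window the median width was 272 bp for ERG shRNA#2 (quartiles 207 to 358) and 201 bp for luciferase. Only 5 of the 204 ERG shRNA#2 peaks had the narrowest width the caller allowed, 154 bp, and 20 were at least 500 bp wide. In the chromosome 8 window 8 of 35 ERG shRNA#2 peaks had the narrowest width and 0 reached 500 bp. Elsewhere 13 of 194 had the narrowest width and 9 reached 500 bp.

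**Figure D1:**
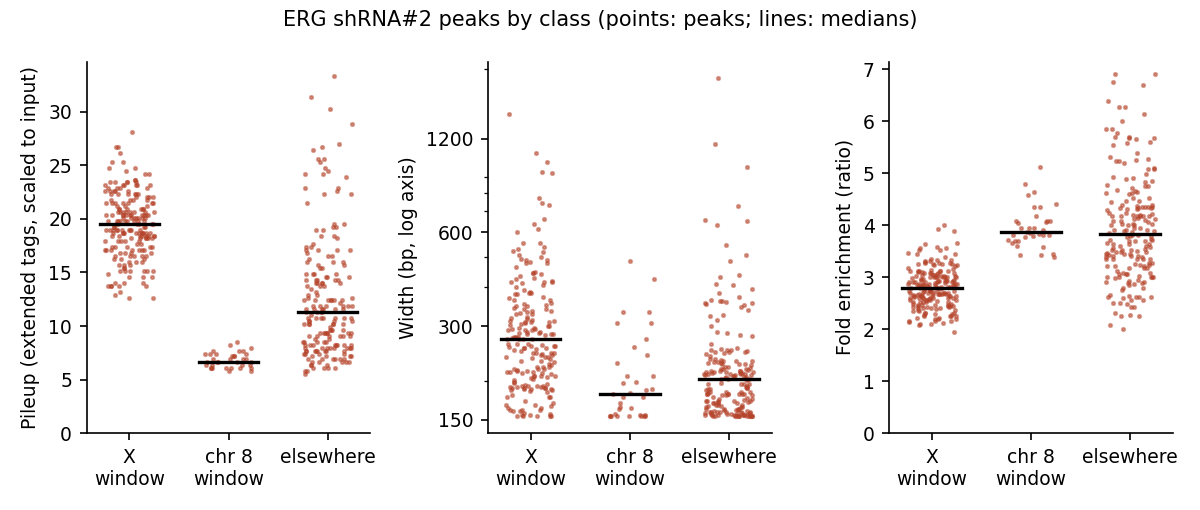
Pileup in extended tags scaled to the input, width in bp on a log axis and fold enrichment as a ratio, for the ERG shRNA#2 peaks of each class; each point is a peak and each line a median. The median pileups are 19.5 in the X window, 6.61 in the chromosome 8 window and 11.3 elsewhere, while the median folds run the other way for the X window, at 2.79 against 3.88 and 3.84. The least pileup that could be listed rises with the local background, so these differences are partly built in.

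Along the X window the ERG shRNA#2 peaks formed 1 long run. The first began at 66032202 and the last ended at 66993196, so they spread over 961 kb and covered 6.68% of it, against 0.803% covered by luciferase peaks over their own span of 864 kb. Neighbouring ERG shRNA#2 peaks were a median of 1482 bp apart, and 82 of the gaps were under 1 kb. In steps of 100 kb from the window's start the list held 12, 9, 19, 32, 47, 25, 27, 17, 11 and 5 ERG shRNA#2 peaks, against 1, 9, 5, 2, 2, 1, 0, 2, 2 and 0 luciferase peaks. The densest step for ERG shRNA#2, 400 to 500 kb into the window, thus held 47 peaks where luciferase had 2. The longest stretch without an ERG shRNA#2 peak was 64.0 kb, from 66893312 to 66957300. The first ERG shRNA, the other hairpin of the series, had 0 peaks in the window. Its library was the smallest of the series, with 4853617 tags, and listed 17321 peaks in all.

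The window's lower border fell in empty sequence and its upper border cut through the run. The nearest ERG shRNA#2 peak below lay 65512 kb away, near the tip of the chromosome, and the steps from 500 kb below the window up to its start held 0 ERG shRNA#2 and 8 luciferase peaks. Above the border the first peak, chrX:67015296-67015530, had a pileup of 24.2 and a fold of 2.50, and the last inside, chrX:66992981-66993196, had 24.8 and 2.08. In all 19 further ERG shRNA#2 peaks followed up to 67077454, and 0 farther up the chromosome. These 19 belong to the class elsewhere by the rule, but had a median pileup of 24.2, a median background of 10.02 times the genome-wide value and a median fold of 2.76.

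Background and fold shifted in steps along the run. From 600 to 700 kb into the window the 27 ERG shRNA#2 peaks had a median background of 5.23 times the genome-wide value, a median pileup of 15.4 and a median fold of 3.08. From 900 to 1000 kb the 5 peaks had 12.4 times, a pileup of 24.8 and a fold of 2.17. Fold is computed with the background in its denominator, so the opposite course of these medians is partly built in. The background comes from the input library, and the part that DNA copy number had in these peaks was not tested.

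**Figure D2:**
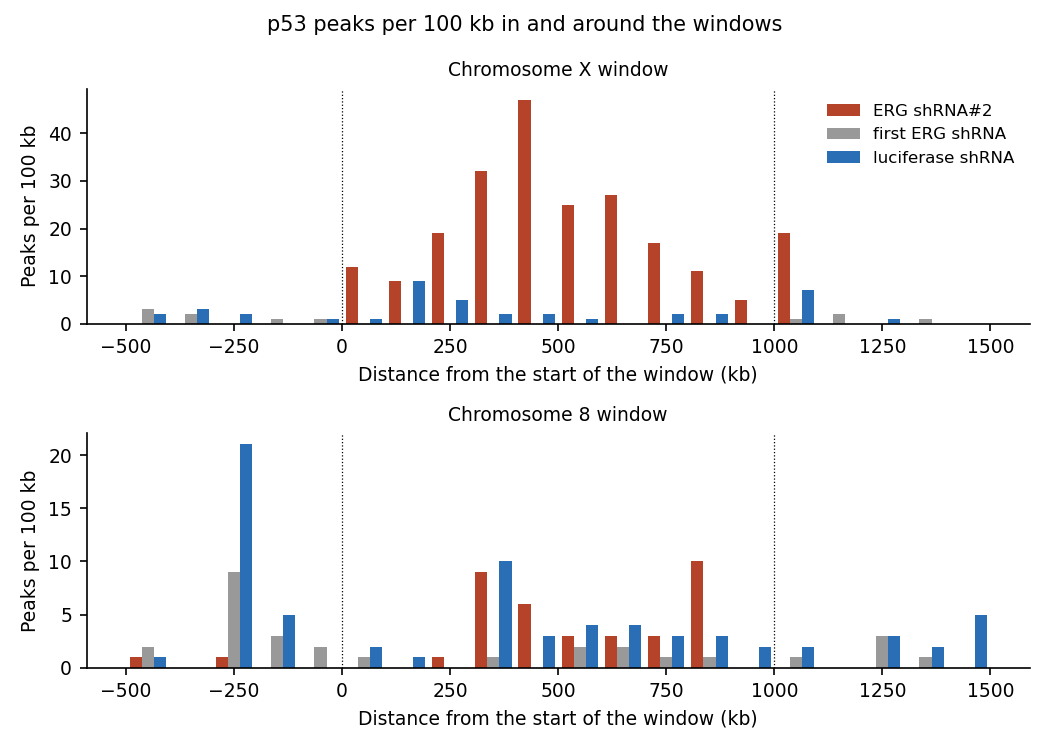
Peaks per 100 kb (vertical axes) against the distance in kb from each window's start (horizontal axes), for ERG shRNA#2, the first ERG shRNA and luciferase shRNA; dotted lines mark the window's borders. In the X window ERG shRNA#2 reached 47 peaks per step and went on for 19 peaks past the upper border, while in the chromosome 8 window it reached 10.

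The X window peaks of highest fold in ERG shRNA#2 lay in its middle and had no luciferase overlap. The leading one, chrX:66667581-66667871, had a pileup of 19.5 and a fold of 4.01. It was followed by chrX:66489354-66489782 with 22.8 and 3.93, and by chrX:66391685-66392017 with 23.4 and 3.88. The next, chrX:66390449-66391220, had 21.5 and 3.66, and lay within 1 kb of the third. The fifth, chrX:66524195-66525637, was 1443 bp wide, the widest of the window, with a pileup of 23.4 and a fold of 3.64. The highest pileup of the window, 28.1, belonged to chrX:66962787-66962979, whose background was 13.0 times the genome-wide value and whose fold was 2.49. The widest and the tallest peak were picked after their values were seen.

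Luciferase peaks of the X window gathered at other places. The 3 of highest fold were chrX:66263908-66264845 (pileup 26, fold 5.15), chrX:66126913-66127109 (27 and 4.48) and chrX:66122048-66122316 (22 and 4.17). They sat in 2 tight groups, one of 6 luciferase peaks within 8.58 kb at chrX:66118528-66127109 and one of 4 within 3.98 kb at chrX:66263541-66267520. ERG shRNA#2 listed 0 peaks in either group, and its nearest peaks were 13.7 kb and 7.75 kb away. The leading luciferase peak stood at 51.2 times its library mean, and the leader of the other group at 53.2 times. These groups were noticed after the values were seen.

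Pairs in the X window were a small share of the ERG shRNA#2 peaks there and a larger share of the fewer luciferase peaks. A luciferase peak met 3 of its 204 ERG shRNA#2 peaks by at least 1 bp (1.47%, exact Clopper-Pearson 95% interval 0.304 to 4.24), where the whole ERG shRNA#2 list had 11.8%. From the other side 3 of 24 luciferase peaks (12.5%, 2.66 to 32.4) were overlapped, where the whole luciferase list had 0.284%. The window is crowded with ERG shRNA#2 peaks and was chosen with their positions known, so this higher share is partly built in. Whether it exceeds random placement within the window was not tested. All such intervals cover counting error only. Within 1000 bp of a luciferase peak lay 10 of the 204. The first pair was chrX:66100707-66100952 in ERG shRNA#2, with a pileup of 16.2 and a fold of 2.68, against 13 and 3.19 in luciferase, and its summits were 201 bp apart. The second, chrX:66892233-66893311, had 22.3 and 2.54 against 16 and 2.50, with summits 451 bp apart. The third, chrX:66450106-66450321, had 18.7 and 2.46 against 13 and 2.65, with summits 34 bp apart. In library means the ERG shRNA#2 level was the lower one in each of these pairs, at 19.8, 27.2 and 22.9 times, against 25.6, 31.5 and 25.6 times in luciferase.

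In the chromosome 8 window the ERG shRNA#2 peaks were low and stood on a nearly flat background. Its 35 ERG shRNA#2 peaks had pileups of 5.78 to 8.53 with a median of 6.61, equal to 24 tags before scaling, and the 32 luciferase peaks had 4 to 11 with a median of 6. The medians were 8.07 and 11.8 times the library mean. The background was close to the genome-wide value, at a median of 1.22 times for ERG shRNA#2 and 1.27 times for luciferase. The median fold was 3.88 (3.39 to 5.12) in ERG shRNA#2 and 4.10 (3.03 to 5.97) in luciferase. At this background a pileup of 5 was the least that passed the p cutoff in ERG shRNA#2, and these peaks lay between 5.78 and 8.53. The median width was 181 bp in ERG shRNA#2 and 160 bp in luciferase.

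These 35 peaks spread over 598 kb, from 87262487 to 87860535, and covered 1.25% of it. They formed a loose group at each end, with 15 peaks from 300 to 500 kb into the window and 10 from 800 to 900 kb, and 3 in each step of 100 kb between. Luciferase had 13 peaks from 300 to 500 kb, 11 in the 3 middle steps and 3 from 800 to 900 kb. The nearest ERG shRNA#2 peak below, chr8:86785871-86786092, lay 214 kb under the border and had the highest pileup of the whole ERG shRNA#2 list, 33.3, on a background of 14.6 times the genome-wide value. The nearest above, chr8:89167842-89168121, was 1168 kb away with a pileup of 6.06. The first ERG shRNA had 8 peaks in the window.

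The chromosome 8 peak of highest fold in ERG shRNA#2 was chr8:87483833-87484010, with a pileup of 8.53 and a fold of 5.12, which was also the window's only one above a fold of 5. The next were chr8:87825294-87825474 (pileup 7.71, fold 4.79) and chr8:87466857-87467189 (7.43 and 4.63). Then came chr8:87833754-87834026 (8.26 and 4.59) and chr8:87853587-87853774 (7.71 and 4.42). None of these 5 was overlapped by a luciferase peak, though chr8:87466857-87467189 lay 265 bp from one. The others were 3981 bp or more away from one. The luciferase peaks of highest fold were chr8:87368680-87369267 (pileup 8, fold 5.97), chr8:87599725-87599872 (8 and 5.47) and chr8:87849281-87849606 (8 and 5.47).

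A luciferase peak met 2 of the 35 ERG shRNA#2 peaks (5.71%, 0.700 to 19.2), where the whole ERG shRNA#2 list had 11.8%. An ERG shRNA#2 peak met 2 of the 32 luciferase peaks (6.25%, 0.766 to 20.8), where the whole luciferase list had 0.284%. As in the X window, the choice of a crowded window partly builds in this higher share. The ERG shRNA#2 peak chr8:87369246-87369502, with a pileup of 5.78, met the edge of the leading luciferase peak by 22 bp, and the summits were 327 bp apart. The other pair was chr8:87307936-87308421, 486 bp wide and the widest ERG shRNA#2 peak of the window. Its pileup was 7.16 against 4 in luciferase, or 8.74 against 7.88 times the library mean, and its summits were 429 bp apart. Neither pair thus shared a summit, and within 1000 bp of a luciferase peak lay 7 of the 35.

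Elsewhere the ERG shRNA#2 peaks were a mixture. The 194 peaks lay on 22 assembled chromosomes and 12 unplaced or random contigs, the contigs holding 21 of them. In windows of 1 Mb, 60 peaks were alone and 108 shared a window with at least 2 more. After the 19 peaks beside the X window, the fullest windows were chromosome 16 at 32 to 33 Mb and chromosome 9 at 68 to 69 Mb, with 7 ERG shRNA#2 and 19 luciferase peaks each. Chromosome 9 at 66 to 67 Mb held 6 ERG shRNA#2 against 52 luciferase peaks, and chromosome 9 at 42 to 43 Mb, where luciferase had 169, held 3. On chromosome 21, the stretch from 11 to 12 Mb had 4 ERG shRNA#2 and 2 luciferase peaks.

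The pileup of the 194 ran from 5.50 to 33.3 with a median of 11.3, against 4 to 176 with a median of 6 for the 17930 luciferase peaks elsewhere. The medians were 13.8 and 11.8 times the library mean. The background at the ERG shRNA#2 peaks had a median of 2.44 times the genome-wide value, and 110 of the 194 (56.7%, 49.4 to 63.8) stood on at least 2 times. At the luciferase peaks elsewhere the median was 1.27 times. A background within 1.5 times the genome-wide value was found at 62 of the 194 ERG shRNA#2 peaks (32.0%, 25.5 to 39.02) and at 15011 of the 17930 luciferase peaks (83.7%, 83.2 to 84.3). The median fold was 3.84 in ERG shRNA#2 (2.01 to 6.90) and 4.38 in luciferase (2.03 to 28.5), and the median width was 203 bp and 162 bp.

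Elsewhere the overlapped share was the highest of the 3 classes among ERG shRNA#2 peaks and the lowest among luciferase peaks. The lowest rank is partly built in, because both windows were chosen where ERG shRNA#2 peaks crowd. A luciferase peak met 46 of the 194 ERG shRNA#2 peaks (23.7%, 17.9 to 30.3), and an ERG shRNA#2 peak met 46 of the 17930 luciferase peaks (0.257%, 0.188 to 0.342). Leaving out the 19 peaks beside the X window, 45 of 175 (25.7%, 19.4 to 32.9) were. The share was highest where the background was near the genome-wide value, and its course above that depended on the limits chosen. Among the 175, it was 28 of 62 (45.2%, 32.5 to 58.3) where the background was within 1.5 times the genome-wide value. It was 2 of 22 (9.09%, 1.12 to 29.2) from there to 2 times, and 15 of 91 (16.5%, 9.53 to 25.7) at 2 times or more. By fold, a luciferase peak met 17 of the 30 ERG shRNA#2 peaks elsewhere at 5 or more (56.7%, 37.4 to 74.5) and 29 of the other 164 (17.7%, 12.2 to 24.4). These cuts were set after the values were seen.

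**Figure D3:**
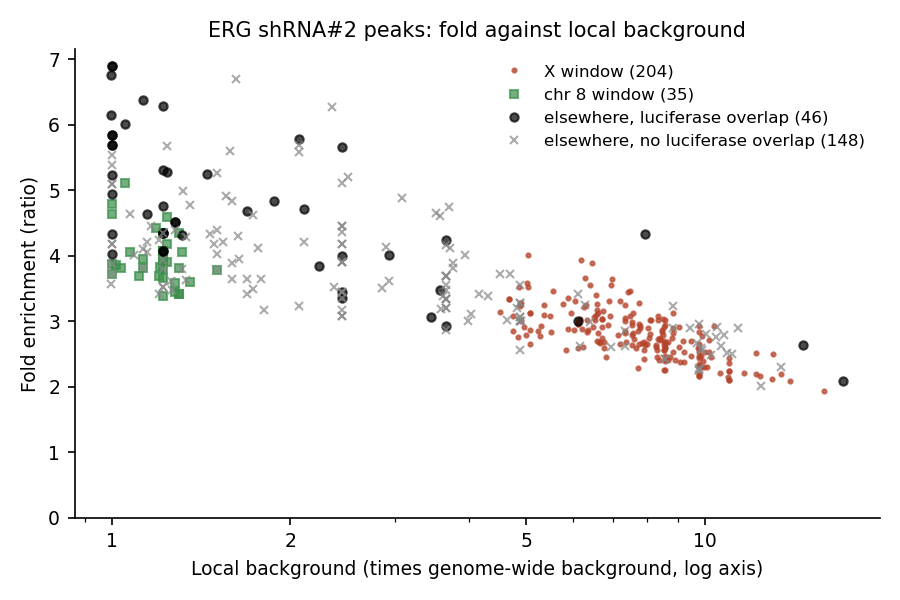
Fold enrichment (ratio) of each of the 433 ERG shRNA#2 peaks against its local background as a multiple of the genome-wide background, on a log axis, by class and, elsewhere, by overlap with a luciferase peak. The X window peaks sit at 4.51 times or more with folds of at most 4.01, the chromosome 8 peaks near 1, and the overlapped peaks elsewhere mostly near 1 with folds up to 6.90.

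The leading pairs elsewhere were mostly narrow peaks on a background near the genome-wide value. The ERG shRNA#2 peak chr12:60411194-60411374 had a pileup of 11.6 and a fold of 6.90, against 15 and 10.6 in luciferase. A peak of the same pileup and fold, chrY:438016-438424, stood against 7 and 5.31. On chromosome 2 the peak chr2:114857556-114857721 had 11.3 and 6.75 against 10 and 7.30, and chr2:83321486-83321650 had 11.3 and 6.38 against 17 and 11.4. The fifth, chr13:102294093-102294273, had 11.6 and 6.28 against 42 and 26.1, the luciferase fold of rank 4. Then came chr5:71055820-71055978 with 10.2 and 6.15 against 12 and 8.62, and chr11:133514178-133514344 with 10.2 and 6.01 against 11 and 7.77. The peak chr2:156303394-156303550 had 9.63 and 5.85 against 17 and 11.9. The same pileup and fold were found at chrX:488036-488389, against 7 and 5.31. This peak and the one at chrY:438016 lie in the pseudoautosomal region, whose sequence the X and Y chromosomes share, at matching places, so they are 1 locus listed under both chromosomes. Both listings were kept, so the counts, shares and intervals for peaks and pairs elsewhere hold this locus more than once. The last of the 10, chr8:79680765-79680926, had 14.6 and 5.79 against 41 and 20.5. Raw pileups of both lists are on unlike scales. In library means, chr2:114857556-114857721 stood at 13.8 times against 19.7 in luciferase, and chrX:488036-488389 at 11.8 against 13.8. The listing at chrY:438016-438424 stood at 14.1 against 13.8. In the other pairs named here the luciferase pileup was the higher one on both scales. Each of the 10 was also overlapped by a peak of the first ERG shRNA.

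The leading ERG shRNA#2 peaks elsewhere without a luciferase overlap stood more often on a raised background. The first, chr16:32827312-32827673, had a pileup of 14.6 and a fold of 6.71 on 1.62 times the genome-wide background, and chrY:9934772-9935004 had 17.3 and 6.27 on 2.35 times. Next were chr2:91738245-91738492 with 14.3 and 5.68 on 2.07 times, and chr21:9473730-9473902 with 10.5 and 5.68 on 1.24 times. The peak chr8:122521051-122521222 had 11.8 and 5.60, and chr1:148859256-148859475 had 14.0 and 5.58. On chr9:68436717-68436889 the values were 9.08 and 5.54 on 0.999 times, the lowest background a peak could have. The last 3 were chrY:438965-439199 (pileup 8.81, fold 5.39), chr2:87593045-87593306 (10.7 and 5.26) and chr17:25293450-25294180 (14.9 and 5.20), the last of them 731 bp wide. The peak on chromosome Y at 438965 lay beside the overlapped one at 438016. Of these 10, 5 were overlapped by a peak of the first ERG shRNA. Some missed a luciferase peak narrowly, by 23 bp at chr8:122521051, 42 bp at chr1:148859256 and 284 bp at chr2:87593045. The gap was 409 bp at chr16:32827312 and 575 bp at chrY:438965. The other gaps ran from 1445 bp at chr9:68436717 to 124579 bp at chrY:9934772.

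The widest ERG shRNA#2 peak of the whole list, chrX:67037826-67039697, lay just above the X window. It was 1872 bp wide, with a pileup of 31.4, a fold of 4.33 and a −log10 p of 12.2, the highest of the list. The luciferase peak that overlapped it had a pileup of 17 and a fold of 3.56. In library means the pileups were 38.3 times in ERG shRNA#2 and 33.5 times in luciferase. This ERG shRNA#2 peak was chosen after its values were seen.

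The median distance between summits in the 46 pairs elsewhere was 48 bp (quartiles 17 to 105), and 34 pairs had them within 100 bp. The median pileup was 10.05 in ERG shRNA#2 and 10 in luciferase, or 12.3 and 19.7 times the library mean. The ERG shRNA#2 level was the lower one by that scale in 41 of the 46. A peak had to pass its own list's limit to form a pair, and that limit differed between the lists and with the background. These levels are therefore given side by side and not as a change. In 30 of the 46 pairs, and in 52 of all 194 ERG shRNA#2 peaks elsewhere, a peak of the first ERG shRNA overlapped as well, against 12% of the whole ERG shRNA#2 list. The first ERG shRNA listed 0 peaks in the X window, which fixes its overlap with the 204 peaks there at 0. It overlapped 0 of the 35 chromosome 8 peaks. What the smaller size of its library had to do with this was not tested. The 30 pairs also found in the first ERG shRNA list had a median summit distance of 29 bp and a median ERG shRNA#2 fold of 5.26, against 102.5 bp and 4.05 in the other 16.

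**Figure D4:**
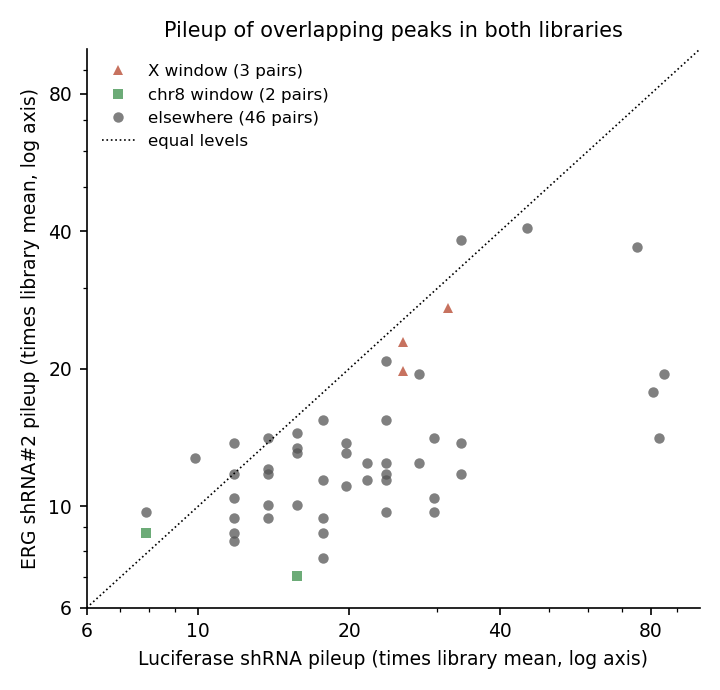
Pileup of ERG shRNA#2 (vertical, times its library mean, log axis) against that of luciferase shRNA (horizontal, times its library mean, log axis) for the 51 overlapping pairs, by class; the dotted line marks equal levels. Of the 46 pairs elsewhere 41 lie below the line, and the 4 farthest to the right stand above 70 times in luciferase.

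The backgrounds of both lists were compared at overlapping peaks. Over all 51 pairs the ERG shRNA#2 multiple divided by the luciferase multiple had a median of 0.999 (0.393 to 1.35), and it lay between 0.8 and 1.2 in 44. In the 19 pairs with at least 2 times the genome-wide value in both lists, a choice that drops the most unequal pairs, it ran from 0.829 to 1.35. The headers name the input differently, with equal tag totals.

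Luciferase peaks of high fold were overlapped more often than the whole luciferase list, though most had no ERG shRNA#2 peak. An ERG shRNA#2 peak met 6 of the 138 luciferase peaks whose fold was 10 or more (4.35%, 1.61 to 9.22), against 0.284% of the whole luciferase list, and 2 of the 10 of highest fold. With the luciferase list cut by fold into 10 deciles, the highest (5.97 to 28.5) held 18 of the 51 overlapped peaks, and the lowest (2.03 to 3.49) held 8. The deciles between held 6, 2, 1, 4, 4, 1, 4 and 3, in falling order of fold. The lowest thus held more than any of those between, and the course was no steady fall with fold. The luciferase peak of highest fold, chr15:55358319-55358522, stood at 82.8 times its library mean. It had no ERG shRNA#2 overlap. The 132 luciferase peaks of fold 10 or more without an ERG shRNA#2 overlap had a median level of 37.4 times the luciferase mean.

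The caller's significance also differed by class. A q of at most 0.05 was given to 9 of 204 ERG shRNA#2 peaks in the X window (4.41%, 2.04 to 8.21), to 0 of 35 in the chromosome 8 window (0%, 0 to 10.003) and to 27 of 194 elsewhere (13.9%, 9.38 to 19.6), against 8.31% of the whole ERG shRNA#2 list. In luciferase the counts were 19 of 24, 22 of 32 and 14305 of 17930, against 79.8% of its whole list. A q of 1 was given to 131, 31 and 102 of the ERG shRNA#2 peaks in the order of the classes. These were 64.2%, 88.6% and 52.6% of each class, so most peaks of every class had it. The q was adjusted by the caller within each library, so its shares are not on 1 scale between libraries.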

How the data were processed

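Peak sheets of the 2 libraries compared (3 libraries in the series, 1 per group) were used as deposited. The build hg19 and the tools MACS2, bedtools, Bowtie2 and Picard (version 2.14.0) are named without their roles, per the submitters' processing notes. MACS 2.2.7.1 made each list against an input at a p cutoff of 0.001 with at most 1 tag per position, per the file headers. Tags were extended to 154 bp for ERG shRNA#2 and 148 bp for luciferase, per the file headers. The deposited pileup is a coverage signal, the deposited fold enrichment a ratio with 1 added to pileup and background, and both significance columns are the −log10 of p and q from the authors' caller. Their headings were damaged in the spreadsheets. A Poisson tail computed from pileup and background matched the first of them within 0.1 for 100% of peaks in both lists, so it holds p.

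Peaks were classed by full containment and paired by an overlap of 1 bp, with Python 3.11.15, pandas 2.3.3, numpy 2.4.6, scipy 1.17.1 and matplotlib 3.10.9. The rules were tested on 433 simulated pairs (0 wrong), and bedtools 2.31.1 gave the same count of 51 overlapped ERG shRNA#2 peaks. Scaled pileups returned whole tags within 0.018 tags. The rule for named regions took the 5 ERG shRNA#2 peaks of highest fold and all overlapped ones in each window, the 3 luciferase peaks of highest fold there, and elsewhere 10 overlapped and 10 other peaks, again by fold. Members, windows and rules were chosen with earlier results of these data known. Values of peaks are the authors' own and describe 1 list. No genome or gene annotation of hg19 was used here, so no sequence is printed and the planned gene lists were not analysed here.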

Additional observations from a re-analysis of the deposited data

How the results depend on the processing

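Of 69 alternatives over 28 values, 43 left the value inside its interval (for a count, within 1.5 times) and 26 moved it. Counts and shares have no direction to reverse. At −log10 p of at least 5, the ERG shRNA#2 counts were 85 in the X window, 5 in the chromosome 8 window and 103 elsewhere, and merging entries within 1000 bp left 122 in the X window. At that p the median pileup, width and fold in the X window were 20.6, 313 bp and 3.07, the median pileup and fold in the chromosome 8 window 7.71 and 4.63, and the median fold elsewhere 4.39. With both lists at that p, the overlapped shares of ERG shRNA#2 and of luciferase peaks were 0% in each window. In the chromosome 8 window both shares were also 0% at a reciprocal overlap of 50% and with summits within 100 bp. Peaks within 1000 bp gave ERG shRNA#2 shares of 4.90%, 20% and 32.5% in the order of the classes, and luciferase shares of 21.9% in the chromosome 8 window and 0.390% elsewhere. Elsewhere the ERG shRNA#2 share was 17.0% at a reciprocal overlap of 50% and 17.5% with summits within 100 bp, and the luciferase share was 0.184% at a reciprocal overlap of 50%. Wide intervals hide moves in the X window, which has few pairs. Its ERG shRNA#2 share was 0.490% and its luciferase share 4.17% both at a reciprocal overlap of 50% and with summits within 100 bp, its luciferase share within 1000 bp was 29.2%, and at the reciprocal overlap 1 pair remained, with summits 34 bp apart. For all of these the cause was not tested. Leaving out the 19 peaks beside the X window or the contigs, added after seeing the data, kept the values elsewhere inside their intervals. A limit of 1.25 times the genome-wide background was tried before the limit of 1.5 times and also after seeing the data. Elsewhere, outside that run, it gave ERG shRNA#2 overlapped shares of 50% of 48 peaks within it and 16.7% of 36 from there to 2 times. Both were inside their intervals. At that limit the middle band was no longer the lowest, at 16.7% against 16.5% at 2 times or more. No paired analysis was possible because neither side had a second library. With 1 library a side every interval describes these lists, not the hairpins.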
